A study of Homo sapiens with 6 samples.

Results

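The D cyclins and the CDK inhibitors of G1 were taken by symbol from the deposited count matrix, and all 10 were found among its 35322 genes. They comprise 3 D cyclins (CCND1, CCND2 and CCND3), 3 inhibitors of the CIP/KIP family (CDKN1A, CDKN1B and CDKN1C) and 4 of the INK4 family (CDKN2A, CDKN2B, CDKN2C and CDKN2D). RNA was sequenced from 22Rv1, an established human prostate carcinoma cell line, in 6 libraries. The libraries form 3 groups of 2, which are control cells labelled WT and a first and a second knockdown of ZMYND11, labelled ZM11-kd1 and ZM11-kd2. ZMYND11 encodes a chromatin reader that binds trimethylated lysine 36 of histone H3.3. The study made its knockdown cells with lentiviral shRNA vectors and puromycin selection. The study describes the sequenced controls as carrying control shRNAs, whereas the labels give them as WT, and this difference was not settled here. The shRNA behind each knockdown label is not given in the sources used here. The labels list no other treatment and give the same serum-containing base medium for all groups. The study's methods keep infected cells in puromycin, and whether the controls were grown with it is not settled here. Nothing in the labels says that the 2 libraries of a group came from separate cultures, so p-values measure the spread between these libraries, which may be technical.

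D cyclins bind the kinases CDK4 and CDK6, and the complexes phosphorylate the retinoblastoma protein, which releases E2F factors and lets a cell pass from G1 into S phase. INK4 proteins bind CDK4 and CDK6 and keep D cyclins away, while CIP/KIP proteins bind complexes of cyclin and kinase, with CDK2 complexes as their best known target. In prostate cancer cells, androgen signalling and growth factors act on D cyclins, and loss of p27, the product of CDKN1B, is a familiar feature of the tumours.

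The targeted gene was lower in every knockdown library. ZMYND11 (chr10:130088-254637, plus strand, hg38) had 4283 and 4179 counts in control cells, 941 and 773 in ZM11-kd1, and 770 and 779 in ZM11-kd2. CPM, the counts scaled to library size with edgeR's TMM factors, were 138 ± 4.38 in control cells, 26.9 ± 1.12 in ZM11-kd1 and 22.1 ± 0.841 in ZM11-kd2 (SD, n = 2). The log2 fold change was -2.35 ± 0.07 (SE) in ZM11-kd1, with an edgeR adjusted p of 5e-13, and -2.64 ± 0.07 in ZM11-kd2, with an adjusted p of 3.78e-13. After correction for GC content and length it was -1.66 in ZM11-kd1 and -2.37 in ZM11-kd2. Tested directly, ZMYND11 was lower in ZM11-kd2 than in ZM11-kd1, at -0.28 ± 0.07 (adjusted p = 0.00265), which became -0.70 after that correction and -0.10, not called, by library totals alone.

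The libraries held 26844128 to 38193748 counts. The 2 libraries of ZM11-kd2 differed most from each other, with a chi-square per degree of freedom over genes of 10.1, against 2.33 in control cells and 3.83 in ZM11-kd1. All 6 libraries were fitted together over 16510 genes, and a gene is called here at an adjusted p below 0.05. Of 10 luminal prostate markers, 9 stood at 10 CPM or more in every library, and their summed level was 2851 to 2875 CPM in control cells, 3707 to 3736 in ZM11-kd1 and 4090 to 4106 in ZM11-kd2. The T cell gene CD3E and the endothelial gene KDR had 0 counts in every library, the 7 immune markers summed to at most 4.11 CPM, and no endothelial marker was above 0.193 CPM. The 8 fibroblast markers summed to 33.4 to 36.5 CPM in control cells, 86.8 to 87.2 in ZM11-kd1 and 44.5 to 44.9 in ZM11-kd2, with COL1A1 the highest at up to 74.8 CPM. Their part in the results that follow was not tested. In bulk RNA, fewer cells in one state and less RNA per cell cannot be told apart.

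In ZM11-kd1, 6 of the 10 genes rose, namely CCND3, CDKN1A, CDKN1B, CDKN2A, CDKN2B and CDKN2D, and CDKN2C fell. CCND1, CCND2 and CDKN1C did not pass the test. Of all genes tested in this comparison, 38.2% were called higher and 39.8% lower. At a change of at least 2-fold, 2 of the 10 were called higher (CDKN2B and CDKN2D) and 0 lower, CDKN2C falling just short at -0.96, against 19.1% and 22.9% of all genes. The median log2 fold change of the 10 genes was 0.84, and that of all genes tested was -0.03.

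In ZM11-kd2, 6 genes rose (all 3 D cyclins, CDKN1A, CDKN1B and CDKN2B), 3 fell (CDKN1C, CDKN2C and CDKN2D), and CDKN2A did not pass the test. The shares over all genes were 36.5% called higher and 36.9% lower. At 2-fold or more, 3 rose (CCND2, CDKN1A and CDKN2B) and 2 fell (CDKN1C and CDKN2C), where 12.7% of all genes were called higher and 19.2% lower. The median was 0.55 over the 10 genes and -0.03 over all genes tested. Both comparisons use the same control libraries, so they are not independent of each other.

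**Figure D1:**
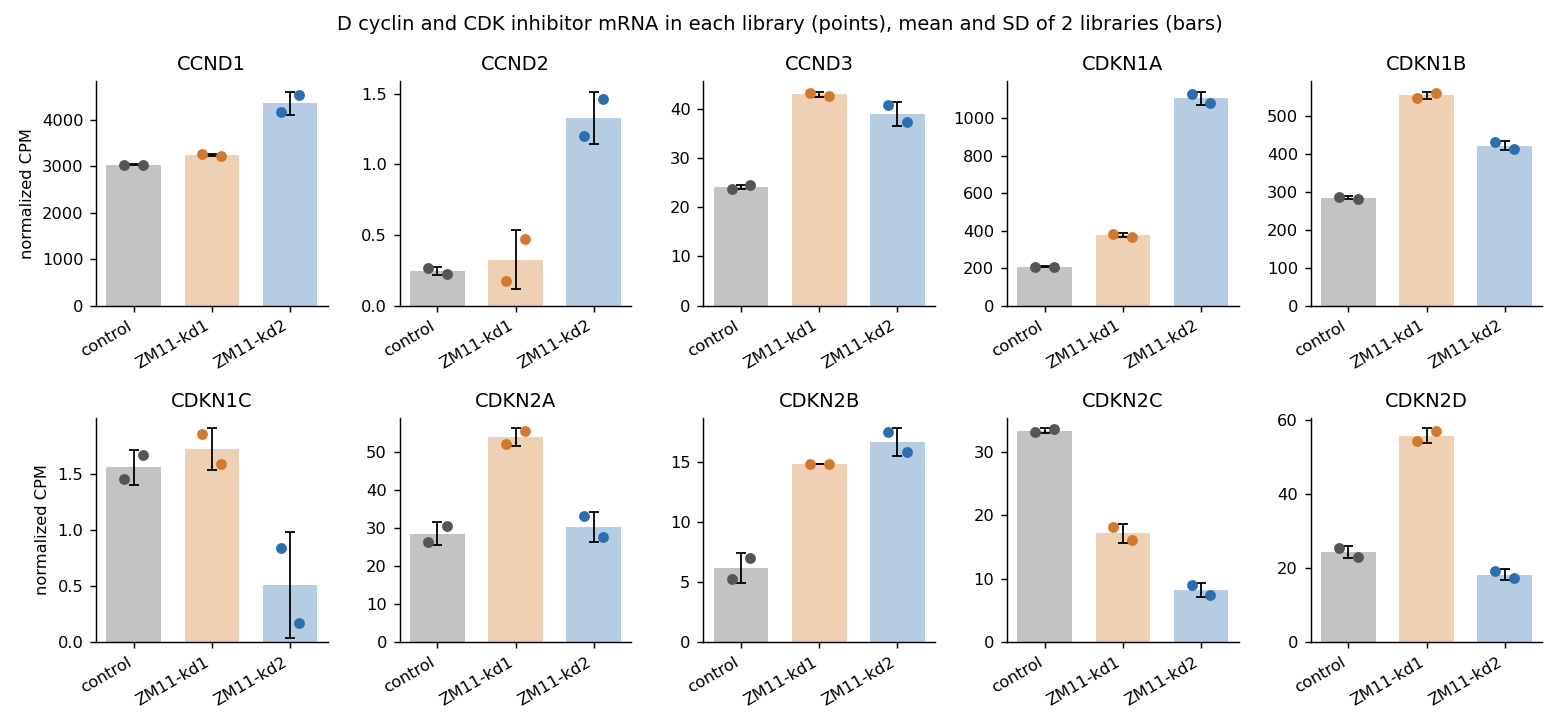
Normalized CPM of the 10 genes in each library, with a panel and a vertical axis of its own for each gene. Points are libraries, bars the mean and error bars the SD of 2 libraries. CDKN1A stood near 207 CPM in control cells and near 1105 CPM in ZM11-kd2, while CDKN2C fell from 33.4 to 17.2 and 8.24 CPM.

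CCND1 (chr11:69641156-69654474, plus strand), which encodes cyclin D1, was by far the most abundant D cyclin mRNA. It stood at 3036 and 3019 CPM in control cells, 3253 and 3230 in ZM11-kd1, and 4178 and 4531 in ZM11-kd2. The 3 groups did not overlap, and both ZM11-kd2 libraries were the highest. In ZM11-kd2 the log2 fold change was 0.52 ± 0.05 (SE), with an edgeR adjusted p of 3.85e-07. In ZM11-kd1 it was 0.10 ± 0.05, with an adjusted p of 0.0949 and a 95% interval from -0.07 to 0.26. With scaling by library totals alone, this value turned to -0.26, with an adjusted p of 0.000226. It was called under 6 of 15 alternatives, this one and 5 others in which it was higher. One of the others was the fit of only the control and ZM11-kd1 libraries, at 0.10 (edgeR adjusted p = 0.00619). Scaling by library totals moved the median gene by -0.35 in ZM11-kd1 and by -0.17 in ZM11-kd2. LTO1, which shares 497 exon bases with CCND1 on the opposite strand, had 932 to 1094 counts, at most 1.17% of those of CCND1.

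CCND2 (chr12:4269771-4305353, plus strand), the gene of cyclin D2, was close to the limit of detection. Its raw counts were 8 and 7 in control cells, 6 and 14 in ZM11-kd1, and 43 and 50 in ZM11-kd2. These correspond to 0.263 and 0.225 CPM, 0.177 and 0.473 CPM, and 1.2 and 1.46 CPM. The ZM11-kd2 libraries stood apart from the other 4, whose counting intervals overlapped, the widest reaching from 0.259 to 0.793 CPM in ZM11-kd1 replicate 2. The log2 fold change was 2.43 ± 0.51 in ZM11-kd2 (edgeR adjusted p = 0.000604) and 0.37 ± 0.62 in ZM11-kd1 (adjusted p = 0.594). Without replicate 1 of ZM11-kd1 the latter was 0.95, and without replicate 2 it was -0.46, neither called. The filter on low counts asks for 0.296 CPM by unscaled library totals, which CCND2 reached in both ZM11-kd2 libraries but in only 1 library of each other group. Counting intervals are exact Poisson intervals at 95% and cover counting error only.

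CCND3 (chr6:41934934-42050357, minus strand) encodes cyclin D3. It had 23.8 and 24.5 CPM in control cells, 43.4 and 42.6 in ZM11-kd1, and 40.8 and 37.3 in ZM11-kd2. All 4 knockdown libraries lay above both controls. The rise was 0.83 ± 0.08 on the log2 scale in ZM11-kd1 (edgeR adjusted p = 1.07e-07) and 0.69 ± 0.08 in ZM11-kd2 (adjusted p = 1.08e-06). In ZM11-kd1 it was 0.48 by library totals alone and 0.38 after correction with the longest transcript as length, both still called. TAF8, which starts 156 bases from the start of CCND3 on the opposite strand, had log2 fold changes of -0.16 (adjusted p = 0.0834) and -0.22 (adjusted p = 0.0216), which turned to 0.45 and 0.12 after correction for GC content and length.

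CDKN1A (chr6:36676460-36687337, plus strand) encodes p21, the CIP/KIP inhibitor best known as a target of p53. It was measured at 208 and 205 CPM in control cells, 383 and 367 in ZM11-kd1, and 1130 and 1080 in ZM11-kd2. The 3 groups were well apart. ZM11-kd2 gave a log2 fold change of 2.42 ± 0.05, or 5.35-fold, with an edgeR adjusted p of 1.3e-13, and 1.62% of the genes tested had a higher value. In ZM11-kd1 it was 0.86 ± 0.05 (adjusted p = 1.15e-09), which 23.5% of genes exceeded. Correcting for GC content and length left 2.32 in ZM11-kd2 but lowered the value in ZM11-kd1 to 0.31, with an adjusted p of 2.35e-05. DINOL, on the opposite strand and sharing 146 exon bases with CDKN1A, had 0 to 14 counts, at most 0.1% of those of CDKN1A.

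Promoter windows from RefSeq (GRCh38.p14, 250 bases before to 50 after each start) were held for 7 of the 10 genes, and those of CCND1, CCND2 and CDKN1C were not used here. They were searched on both strands for the E-box CACGTG, the letters TTTGAA, the GC box GGGCGG and the E2F-type letters TTTNGCGC, which respectively occur in 7.26%, 15.16%, 44.95% and 1.79% of all 35116 windows. TTTGAA and TTTNGCGC were in none of the windows of these genes. The bases before the start of CDKN1A are printed because its mRNA rose most in the mean of both knockdowns among the members with an average of at least 1 log2 CPM. They lie on the plus strand at chr6:36678464-36678709, up to the first annotated exon base, and capitals mark the 4 GC boxes, the last pair overlapping by a base.

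CDKN1A: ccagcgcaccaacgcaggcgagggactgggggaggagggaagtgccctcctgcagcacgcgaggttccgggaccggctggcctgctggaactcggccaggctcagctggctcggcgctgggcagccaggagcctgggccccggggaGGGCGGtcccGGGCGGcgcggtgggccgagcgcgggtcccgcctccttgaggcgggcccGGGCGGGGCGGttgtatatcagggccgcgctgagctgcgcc

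CDKN1B (chr12:12685498-12722369, plus strand) encodes p27. Its levels were 287 and 282 CPM in control cells, 548 and 561 in ZM11-kd1, and 430 and 413 in ZM11-kd2. Both knockdowns lay above control, with ZM11-kd1 the higher of them, the reverse of the order seen for CDKN1A. Log2 fold changes were 0.96 ± 0.05 in ZM11-kd1 (edgeR adjusted p = 2.34e-10) and 0.57 ± 0.05 in ZM11-kd2 (adjusted p = 1.2e-07). In ZM11-kd1 the correction for GC content and length raised it to 1.48, and scaling by library totals alone lowered it to 0.61. GPR19, which overlaps CDKN1B on the opposite strand without sharing exon bases, had at most 67 counts and log2 fold changes of -1.29 and -2.32 (adjusted p = 0.00295 and 5.55e-05). The RefSeq window of CDKN1B held 1 GC box and none of the other letters, and the bases before its start at chr12:12717118-12717367 on the plus strand are printed for comparison with CDKN1A, with that GC box in capitals.

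CDKN1B: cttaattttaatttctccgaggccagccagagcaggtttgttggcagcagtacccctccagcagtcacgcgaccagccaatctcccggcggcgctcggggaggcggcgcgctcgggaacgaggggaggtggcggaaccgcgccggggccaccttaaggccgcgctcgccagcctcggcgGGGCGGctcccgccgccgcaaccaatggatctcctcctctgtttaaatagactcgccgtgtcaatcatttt

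CDKN1C (chr11:2883213-2885775, minus strand), the gene of p57, had few counts, at 44 and 52 in control cells, 63 and 47 in ZM11-kd1, and 30 and 6 in ZM11-kd2. In CPM these were 1.45 and 1.67, 1.85 and 1.59, and 0.84 and 0.175. The control and ZM11-kd1 libraries overlapped, and both ZM11-kd2 libraries were lower, far apart from each other. The log2 fold change in ZM11-kd2 was -1.60 ± 0.47, with an edgeR adjusted p of 0.00719. Without ZM11-kd2 replicate 2 it was -0.89, with an adjusted p of 0.0543, and without replicate 1 it was -3.13. In ZM11-kd1 the value was 0.14 ± 0.41 (adjusted p = 0.756), which turned to -0.76 after correction for GC content and length and to -0.21 by library totals alone, neither of them called.

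**Figure D2:**
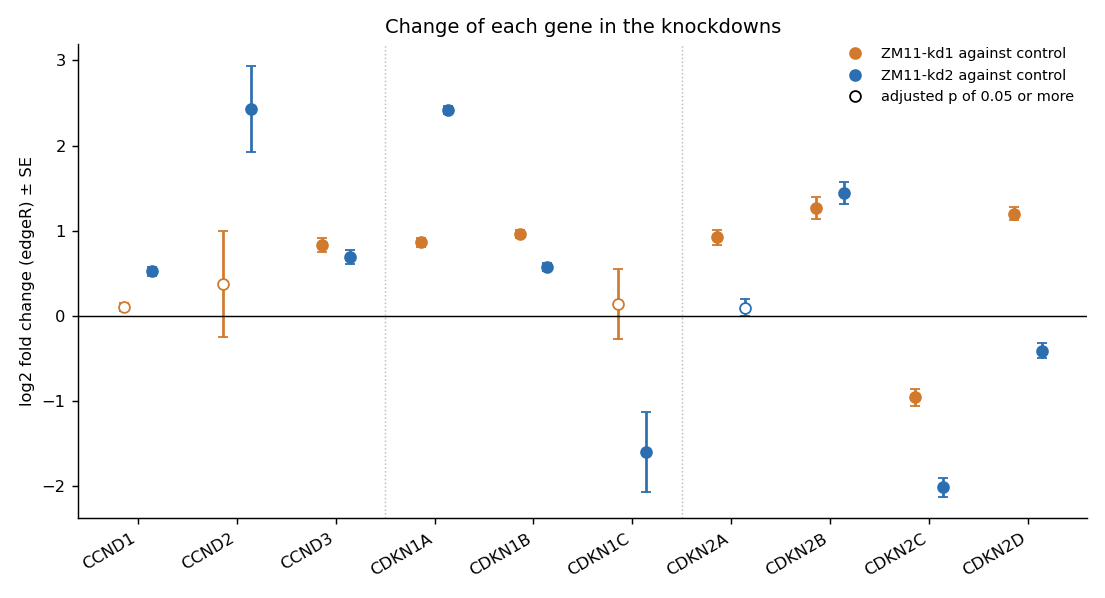
Log2 fold change of each gene in ZM11-kd1 and ZM11-kd2 against control, with its standard error from the edgeR fit. Open points did not pass an adjusted p of 0.05, and dotted lines part D cyclins, CIP/KIP and INK4 inhibitors. CDKN2D lay at 1.20 in ZM11-kd1 and at -0.41 in ZM11-kd2.

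Among the INK4 genes, CDKN2B rose and CDKN2C fell in both knockdowns, CDKN2A rose in ZM11-kd1, and CDKN2D rose in ZM11-kd1 and fell in ZM11-kd2. CDKN2A (chr9:21967752-21995301, minus strand) yields p16 and, from another first exon, p14ARF, and its gene counts add both. It stood at 26.5 and 30.7 CPM in control cells, 52.3 and 55.6 in ZM11-kd1, and 33.1 and 27.6 in ZM11-kd2. Both ZM11-kd1 libraries lay above the controls, as did ZM11-kd2 replicate 1 by less, while ZM11-kd2 replicate 2 lay between the controls. The log2 fold change was 0.92 ± 0.09 in ZM11-kd1 (edgeR adjusted p = 4.08e-07) and 0.09 ± 0.10 in ZM11-kd2 (adjusted p = 0.426, with a 95% interval from -0.22 to 0.39). The rise in ZM11-kd1 depended on the treatment of length. It was 0.56 by library totals alone, 0.50 after correction for GC content and merged exon length, and -0.04, no longer called, where the longest annotated transcript served as length. In ZM11-kd2, leaving out replicate 2 gave 0.21, with an adjusted p of 0.0268.

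CDKN2B (chr9:22002903-22009305, minus strand) encodes p15, which is known as a target of TGF-beta signalling. It had 5.29 and 7.05 CPM in control cells, 14.9 and 14.9 in ZM11-kd1, and 17.5 and 15.9 in ZM11-kd2. Every knockdown library lay above both controls. The log2 fold changes were 1.27 ± 0.13 (edgeR adjusted p = 6.06e-07) in ZM11-kd1 and 1.44 ± 0.13 (adjusted p = 1.81e-07) in ZM11-kd2, or 2.41-fold and 2.71-fold. The antisense gene CDKN2B-AS1 shares 593 exon bases with CDKN2A and none with CDKN2B. It had 133 and 136 counts in control cells, 36 and 64 in ZM11-kd1, and 95 and 98 in ZM11-kd2, with log2 fold changes of -1.46 (adjusted p = 0.000178) and -0.66 (adjusted p = 0.0255). Since the use of strand in counting is not given, reads shared by CDKN2A and its antisense gene cannot be told apart, and CDKN2B-AS1 counts came to between 2.03% and 16.5% of CDKN2A counts.

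CDKN2C (chr1:50960745-50974634, plus strand) encodes p18 and was the member that fell in both knockdowns. It had 33.1 and 33.6 CPM in control cells, 18.2 and 16.1 in ZM11-kd1, and 9.01 and 7.47 in ZM11-kd2. The groups did not overlap, and ZM11-kd2 was the lowest. Its log2 fold change was -0.96 ± 0.10 in ZM11-kd1 (edgeR adjusted p = 5.38e-07) and -2.02 ± 0.11 in ZM11-kd2 (adjusted p = 4.81e-10), where 8.32% of genes had a lower value. In ZM11-kd1 it was -1.50 after correction for GC content and length. FAF1, whose start lies 478 bases away on the opposite strand, had -0.60 (adjusted p = 1.53e-07) and 0.44 (adjusted p = 4.31e-06). CDKN2C has 3 RefSeq starts, and its windows were the only ones of the 7 genes with the E-box CACGTG. The bases before one of the starts, at chr1:50969995-50970244 on the plus strand, are printed because the mRNA fell most by the same measure. Capitals mark the E-box and a GC box.

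CDKN2C: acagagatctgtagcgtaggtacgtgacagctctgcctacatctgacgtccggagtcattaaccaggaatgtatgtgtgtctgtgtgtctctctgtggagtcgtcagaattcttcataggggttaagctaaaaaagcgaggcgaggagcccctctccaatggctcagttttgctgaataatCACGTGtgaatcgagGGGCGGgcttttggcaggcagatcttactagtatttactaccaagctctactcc

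CDKN2D (chr19:10566460-10569059, minus strand) encodes p19, the fourth INK4 protein. It stood at 25.5 and 23.1 CPM in control cells, 54.3 and 57.1 in ZM11-kd1, and 19.3 and 17.2 in ZM11-kd2. The controls lay between the knockdowns without overlap. Against control it changed by 1.20 ± 0.08 (log2) in ZM11-kd1 (edgeR adjusted p = 4.57e-09) and -0.41 ± 0.09 in ZM11-kd2 (adjusted p = 0.000651). After correction for GC content and length the rise in ZM11-kd1 was 0.19, with an adjusted p of 0.0306, and the fall in ZM11-kd2 was -0.65.

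ZM11-kd2 was also tested directly against ZM11-kd1. Of the 10 genes, 8 differed, where 68.8% of all genes tested were called, and 5 differed at least 2-fold, where 25.7% of all genes did. CDKN1A was higher in ZM11-kd2 by 1.56 ± 0.05 on the log2 scale (edgeR adjusted p = 1.26e-11), CCND2 by 2.05 ± 0.48 (adjusted p = 0.00169) and CCND1 by 0.43 ± 0.05 (adjusted p = 4.12e-06). CDKN2D was lower, with a log2 difference of -1.61 ± 0.08 (adjusted p = 5.72e-10). The differences were -1.74 ± 0.47 for CDKN1C (adjusted p = 0.00411), -1.06 ± 0.11 for CDKN2C (adjusted p = 9.14e-07), -0.83 ± 0.09 for CDKN2A (adjusted p = 1.63e-06) and -0.40 ± 0.05 for CDKN1B (adjusted p = 5.68e-06). CCND3, at -0.14 with a 95% interval from -0.37 to 0.09, and CDKN2B, at 0.17 with an interval from -0.21 to 0.55, did not pass the test. CCND3 passed without ZM11-kd2 replicate 1, at -0.21 with an adjusted p of 0.0175, and in the other direction with correction by the longest transcript, at 0.25 with an adjusted p of 0.00267. CDKN2B passed by library totals alone, at 0.35 with an adjusted p of 0.017. With the correction for GC content and length, 2 rather than 5 of the genes differed at least 2-fold. CDKN2C was then at -0.61, CDKN2D at -0.84 and CDKN1B at -0.74, and CDKN1C lost its call, with an adjusted p of 0.0611. With each library left out in turn, CDKN1C ranged from -3.28 to -1.03 and CCND2 from 1.49 to 2.89. With the longest transcript as length the CDKN2A difference was -0.08, with an adjusted p of 0.345.

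**Figure D3:**
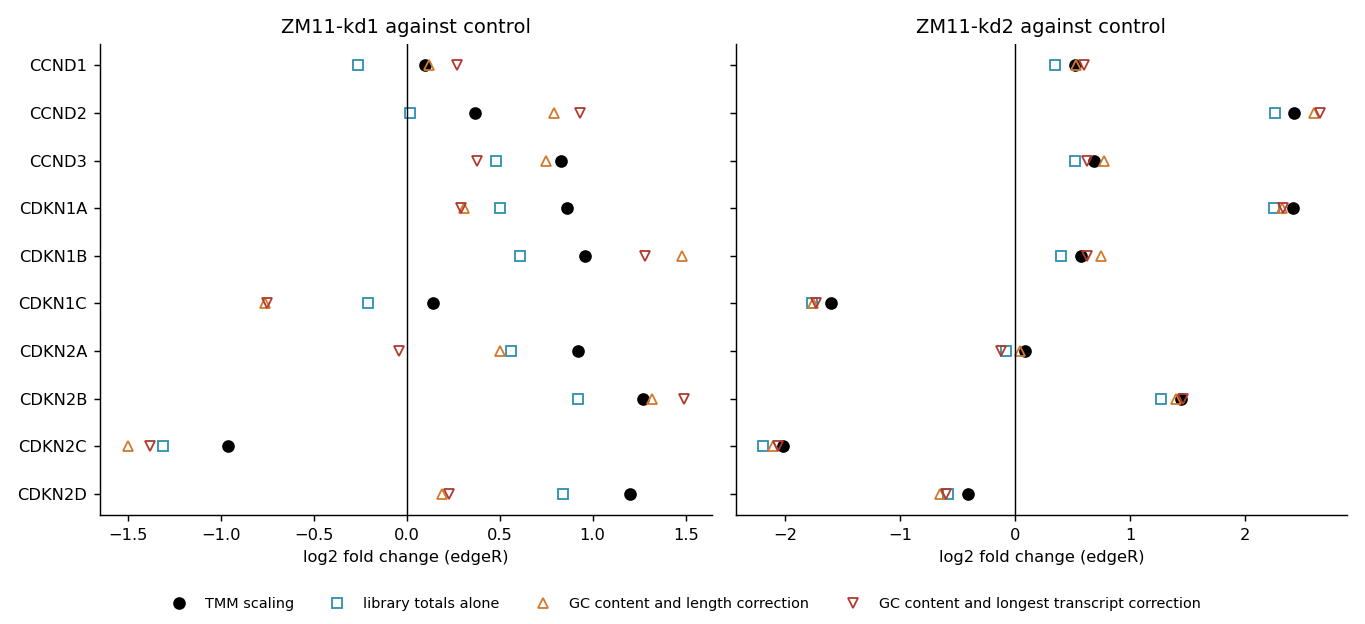
Log2 fold change of each gene against control under TMM scaling, scaling by library totals alone, and corrections for GC content with merged exon length or with the longest transcript as length. Values in ZM11-kd1 moved more than those in ZM11-kd2, as for CDKN2D, at 1.20 and 0.19 in ZM11-kd1 and at -0.41 and -0.65 in ZM11-kd2.

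To compare levels between genes, CPM were divided by the length of merged exons in kilobases. In control cells the order was CCND1 at 636 ± 2.51 CPM per kb (SD, n = 2), CDKN1A at 69 ± 0.687, CDKN1B at 30.7 ± 0.433, CDKN2D at 16.1 ± 1.13, CDKN2C at 11.1 ± 0.115, CDKN2A at 7.36 ± 0.752, CCND3 at 4.19 ± 0.0833, CDKN2B at 1.54 ± 0.311, CDKN1C at 0.629 ± 0.0651 and CCND2 at 0.0306 ± 0.00332. No neighbours in this order had overlapping libraries in control cells or in ZM11-kd1. In ZM11-kd2 the libraries of CDKN1C and CCND2, the lowest pair, overlapped. CDKN2C moved from rank 5 in control cells to rank 7 in ZM11-kd1 and rank 8 in ZM11-kd2, and CCND1, CDKN1A, CDKN1B and CDKN2D kept the first 4 ranks in every group by this length.

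CCND1 made up 99.3% of D cyclin mRNA per kb in control cells, 98.9% in ZM11-kd1 and 99.2% in ZM11-kd2. CCND3 made up 0.655% ± 0.0155, 1.08% ± 0.00939 and 0.737% ± 0.0879 (SD, n = 2). Among the inhibitors, CDKN1A held 50.5% and 50.6% in the control libraries, 51.7% and 50% in ZM11-kd1, and 83.3% and 83.8% in ZM11-kd2. The composition of inhibitor mRNA therefore differed in CDKN1A between ZM11-kd2 and the other groups by more than the spread of the libraries. CDKN1B went from 22.5% ± 0.151 to 24.4% ± 0.541 and 10.3% ± 0.0833, and CDKN2C from 8.1% ± 0.144 to 2.31% ± 0.193 and 0.618% ± 0.0592. CDKN2D took 11.8% ± 0.744, 15% ± 0.625 and 2.75% ± 0.119. With the longest transcript as length, CDKN1A held 42.4%, 41.9% and 76.9%, and CDKN2A stood above CDKN2D in every group, at 12.6% against 7.93%, 13% against 9.91%, and 4.54% against 2.02%. By that length CDKN1B held 30.5%, 32.5% and 15.3%, and CDKN2C 5.35%, 1.5% and 0.447%. These shares are given without a test, and an exact permutation test of 2 libraries against 2 could not go below a p of 0.333.

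The summed inhibitors came to 137 and 136 CPM per kb in control cells, 247 and 245 in ZM11-kd1, and 453 and 430 in ZM11-kd2. The summed D cyclins were 642 and 638, 691 and 686, and 885 and 958. CCND1 makes up nearly all of this sum. By library totals alone CCND1 was lower in ZM11-kd1 than in control cells, at -0.26 on the log2 scale. The ratio of inhibitors to D cyclins, which does not depend on the scaling of libraries, was 0.214 and 0.213 in control cells, 0.358 and 0.357 in ZM11-kd1, and 0.512 and 0.449 in ZM11-kd2. The order of the groups was the same with the longest transcript as length, at 0.296 and 0.298, 0.502 and 0.506, and 0.649 and 0.568. Neither the ratio nor the shares were corrected for GC content. In ZM11-kd1, correction for GC content and length lowered the log2 fold changes of CDKN1A from 0.86 to 0.31 and of CDKN2D from 1.20 to 0.19. It raised that of CDKN1B from 0.96 to 1.48. The sums are of mRNA and say nothing of the proteins.

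**Figure D4:**
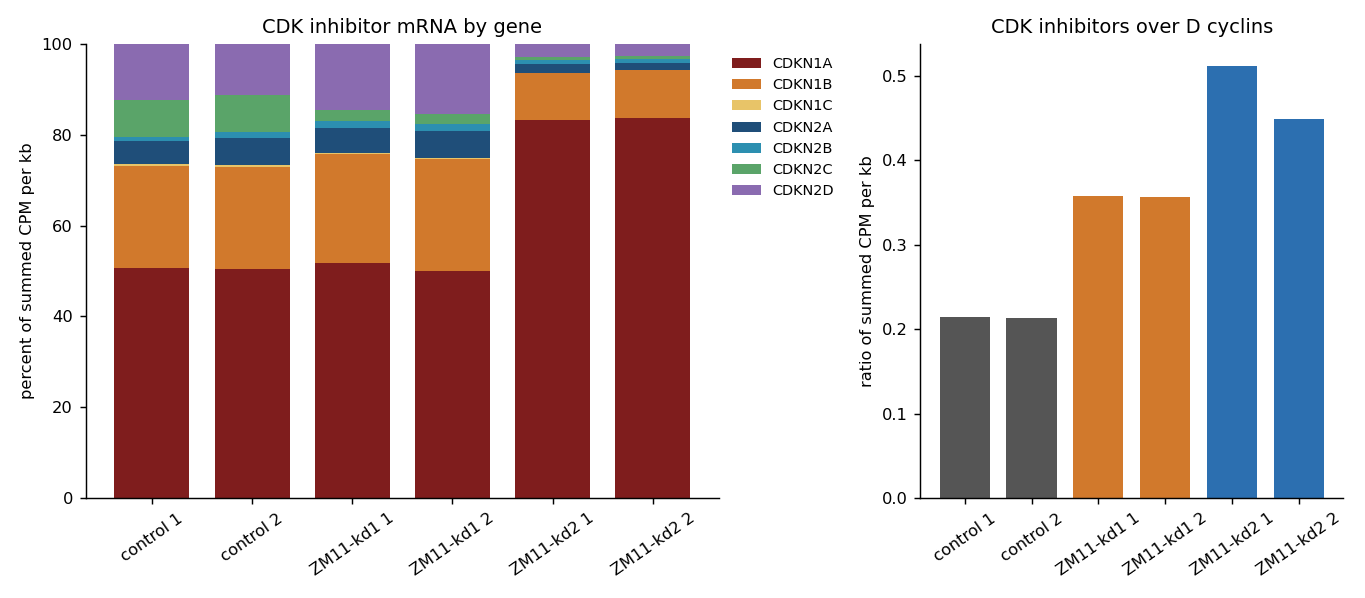
Left, percent of summed CDK inhibitor CPM per kb of merged exons held by each gene in each library. Right, ratio of summed CDK inhibitors to summed D cyclins in each library. CDKN1A held 83.3% and 83.8% in the ZM11-kd2 libraries, and the ratio was lowest in control cells.

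Of the kinases that D cyclins bind, CDK4 was lower in ZM11-kd1 and CDK6 higher in ZM11-kd2. CDK4, CDK6, CDK2, CCNE1 and RB1 are named here for their roles, after their values were seen. CDK4 had 154 and 157 CPM in control cells, 74.4 and 71.9 in ZM11-kd1, and 143 and 148 in ZM11-kd2. Its log2 fold change was -1.09 ± 0.05 in ZM11-kd1 (edgeR adjusted p = 1.42e-10) and -0.10 ± 0.05 in ZM11-kd2 (adjusted p = 0.11). In ZM11-kd2 it was called lower under 5 alternatives, at -0.27 by library totals alone, -0.14 with at least 10 counts in every library, -0.17 and -0.21 with the corrections by merged exons and by the longest transcript, and -0.12 without ZM11-kd2 replicate 2. CDK6 had 18.5 and 19.4 CPM, 19.6 and 20.1 CPM, and 28.3 and 28.3 CPM. It stood at 0.06 ± 0.08 in ZM11-kd1 (adjusted p = 0.494) and 0.58 ± 0.08 in ZM11-kd2 (adjusted p = 1.65e-05). In ZM11-kd1 its direction depended on scaling, with -0.29 by library totals alone and 0.75 after correction for GC content and length, each called.

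CDK2, the kinase of cyclins E and A, fell in both knockdowns, from 90.7 and 95.3 CPM to 30.3 and 30.2 in ZM11-kd1 and 32.2 and 28.9 in ZM11-kd2. Its log2 fold changes were -1.62 ± 0.07 (edgeR adjusted p = 3.42e-11) and -1.60 ± 0.07 (adjusted p = 6.36e-11). CCNE1, the gene of cyclin E1, changed by -2.15 ± 0.21 (adjusted p = 2.42e-07) and -1.18 ± 0.19 (adjusted p = 5.29e-05). CCNE2 changed by -3.33 and -2.12, and CDC25A, the phosphatase that activates CDK2, by -2.18 and -1.39. The gene of cyclin H, CCNH, and MNAT1, both partners of the kinase CDK7, had 1.28 and 0.96, and 0.86 and 0.34. Of the 10 genes in the list of G1 kinases and partners, 4 rose and 5 fell in ZM11-kd1, and 5 rose and 4 fell in ZM11-kd2. Over all genes tested, 38.2% were higher and 39.8% lower in ZM11-kd1, and 36.5% and 36.9% in ZM11-kd2. At 2-fold or more, 1 of the 10 rose and 5 fell in ZM11-kd1, and 0 rose and 4 fell in ZM11-kd2. Of all genes, 19.1% were called higher and 22.9% lower by this rule in ZM11-kd1, and 12.7% and 19.2% in ZM11-kd2.

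Of 10 pocket protein and E2F genes, 2 rose and 7 fell in ZM11-kd1, and 3 rose and 7 fell in ZM11-kd2, with medians of -1.13 and -0.50. Over all genes tested, 38.2% were called higher and 39.8% lower in ZM11-kd1, and 36.5% and 36.9% in ZM11-kd2. E2F1 was at 82.9 ± 3.45 CPM in control cells, 5.18 ± 0.748 in ZM11-kd1 and 17.3 ± 1.87 in ZM11-kd2 (SD, n = 2), and its log2 fold changes were -4.01 and -2.26. RBL1, the gene of the pocket protein p107, stood at -2.68 and -2.07. RB1 had 75 and 79 CPM in control cells, 97.4 and 89.1 in ZM11-kd1, and 139 and 156 in ZM11-kd2. Its rise was 0.28 ± 0.07 in ZM11-kd1 (edgeR adjusted p = 0.00215), which turned to -0.08 by library totals alone, and 0.94 ± 0.07 in ZM11-kd2 (adjusted p = 1.45e-08). E2F5 had 0.58 and 0.60, both called. All 5 genes of the S, G2 and M list, which are 4 cyclins and CDK1, fell in both knockdowns, where 39.8% and 36.9% of all genes did, with CCNB1 at -5.09 and -4.70 and CCNA2 at -4.65 and -3.67.

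Of 18 genes that act in turnover of D cyclin and CIP/KIP proteins, 8 rose and 7 fell in ZM11-kd1, and 6 rose and 6 fell in ZM11-kd2, with medians of 0.09 and -0.03. These counts are also near the shares over all genes, of 38.2% and 39.8% in ZM11-kd1 and 36.5% and 36.9% in ZM11-kd2. SKP2, the ubiquitin ligase subunit that marks p27 for degradation, went from 77.3 ± 5.46 CPM to 15.4 ± 0.62 and 20.5 ± 0.973, or by -2.33 and -1.92 on the log2 scale. DTL, which directs p21 to degradation in S phase, changed by -4.47 and -3.43. SKP1, the adaptor of the SKP2 ligase, had 1.90 and 1.15, and RBX1, the RING subunit of cullin ligases, had 1.91 and 0.92. These 4 genes were called in both comparisons.

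Of 20 regulators of CDK inhibitor genes, 19 were tested, of which 9 rose and 8 fell in ZM11-kd1 and 8 rose and 8 fell in ZM11-kd2. These counts are near the shares of all genes called, which were 38.2% higher and 39.8% lower in ZM11-kd1, and 36.5% and 36.9% in ZM11-kd2. MYC, which represses CDKN1A and CDKN2B, fell from 132 ± 0.103 CPM to 18.2 ± 0.568 and 54.8 ± 0.793, with log2 fold changes of -2.85 and -1.26. EZH2, the Polycomb methyltransferase known to silence the CDKN2A locus, changed by -2.59 and -1.86. ID1, an inhibitor of helix-loop-helix factors, rose by 3.24 and 1.48 on the log2 scale and HES1, a repressor in the Notch pathway, by 2.12 and 1.63. Of 12 activators of D cyclin genes, 8 rose and 2 fell in each comparison, with medians of 0.67 and 0.85, beside the same shares of all genes (38.2% and 39.8%, and 36.5% and 36.9%). The AP-1 gene FOS had 3.43 and 1.70 and EGR1 2.78 and 1.46, while NOTCH1 had -1.38 and -0.97. CREB1 was at -0.36 in ZM11-kd1 (adjusted p = 0.00043), turning to 0.34 after correction for GC content and length, and at 0.12 in ZM11-kd2 (adjusted p = 0.149).

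**Figure D5:**
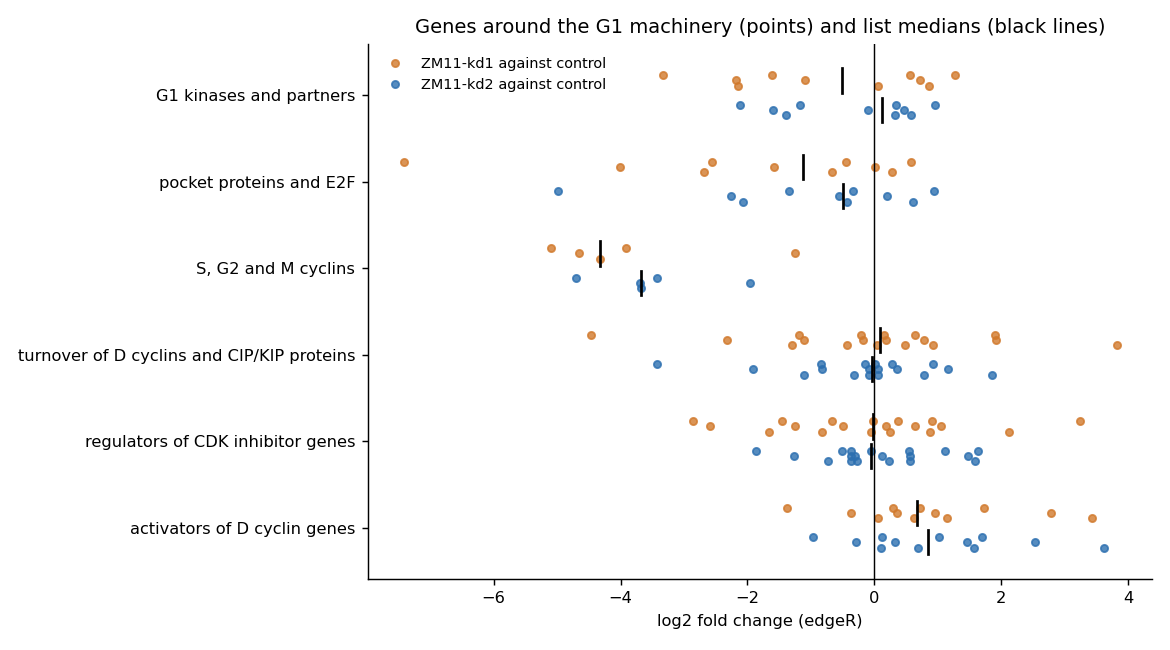
Log2 fold changes of the tested genes in 6 lists around the G1 machinery, in ZM11-kd1 and ZM11-kd2 against control. Points are genes and black lines list medians. The S, G2 and M list lies below 0 in both knockdowns, with medians of -4.32 and -3.67.

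Likeness of pattern was measured over the 6 libraries as the root mean square difference of centred log2 CPM, among 9956 genes of at least 3 log2 CPM. The genes nearest to CDKN1A were RAP2C (0.0986), OSTM1 (0.114) and ASTN2 (0.12), with log2 fold changes in ZM11-kd2 of 2.36, 2.16 and 2.52. The genes nearest to CDKN2C were CPNE7 (0.0932), C2orf92 (0.108) and COQ2 (0.112), with -1.95, -1.77 and -1.96 in ZM11-kd2. As these genes were picked for likeness over the same libraries, their similar fold changes follow from the choice. A link to the members was not tested.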

How the data were processed

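The 6 RNA-seq libraries of 22Rv1 cells were grouped by their labels. The authors deposited raw read counts per gene symbol, without normalization. The submitters' processing notes name FastQC 0.11.9, STAR 2.7.9a, HTSeq 0.13.5 and hg38, with the role of HTSeq not given. Annotation and strand use in counting are not given in the sources used here.

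Genes passing filterByExpr (10 counts, or 0.296 CPM here) were fitted in edgeR 4.0.16 (R 4.3.3) with TMM factors and the quasi-likelihood F test, for 3 groups in one fit with 3 residual degrees of freedom. P-values were adjusted over 16510 genes by the Benjamini-Hochberg method. Intervals of log2 fold changes use the SE and those degrees of freedom alone. The F test also draws on the spread of other genes, so its p-values and these intervals need not match. Gene models were GENCODE 44, matched by symbol for 32852 genes.

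Alternatives were DESeq2 size factors, library totals, the DESeq2 1.42.0 Wald test, 2 other filters, a replicate block, only the groups compared, GC content and length correction (lowess span 0.3) and each library left out. Correction with the longest transcript was chosen after seeing the data. The members and lists were chosen with earlier results of these data known. From each further list the text names up to 2 genes each way by mean log2 fold change of both knockdowns, among genes averaging at least 1 log2 CPM. On simulated counts of 16062 genes for ZM11-kd1, 95% of 2-fold and 100% of 4-fold changes were recovered, with 3.47% of calls false. For ZM11-kd2 the false share was 4.85%. Only 200 genes were changed there, as many up as down and none of them low in counts. In the data, 12882 genes were called in ZM11-kd1. The simulation therefore does not cover so wide a change, or counts as low as those of CCND2 and CDKN1C.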

Additional observations from a re-analysis of the deposited data

Results flagged for a closer look

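The effects of the 2 knockdowns differed by the direct test of ZM11-kd2 against ZM11-kd1 (edgeR, adjusted p under 0.05) for 8 of the 10 genes. The log2 difference was 0.43 for CCND1, 2.05 for CCND2 and 1.56 for CDKN1A, each higher in both ZM11-kd2 libraries than in both ZM11-kd1 libraries. It was -0.40 for CDKN1B, -1.74 for CDKN1C, -0.83 for CDKN2A, -1.06 for CDKN2C and -1.61 for CDKN2D, each lower in both ZM11-kd2 libraries. Over all genes tested, 68.8% differed in this comparison. CDKN1C rests on 30 and 6 counts in ZM11-kd2, and CCND2 on 6 and 14 counts in ZM11-kd1.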

How the results depend on the processing

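Of 443 refitted log2 fold changes of the 10 genes over all alternatives, 428 kept their direction where called and their side of the threshold, 4 lost the call, 8 gained it and 3 turned. The 3 were CCND1 in ZM11-kd1 at -0.26 by library totals alone, and, with correction for GC content and the longest transcript, CDKN2A in ZM11-kd1 at -0.04 and CCND3 between the knockdowns at 0.25. Members called at least 2-fold went from 2 to 1 in ZM11-kd1 by library totals alone, and to 3 with at least 10 counts in every library, with either length correction, without control replicate 2 and without ZM11-kd1 replicate 1. After correction by merged exons CDKN2D (0.19) was no longer among them, while CDKN1B (1.48) and CDKN2C (-1.50) were. With at least 10 counts in every library, which leaves out CCND2 and CDKN1C, they went from 5 to 3 in ZM11-kd2 and from 5 to 3 between the knockdowns, and with either length correction to 2 between the knockdowns. Among other genes, library totals alone turned RB1 to -0.08 and CDK6 to -0.29 in ZM11-kd1. Correction for GC content and merged exon length turned E2F5 between the knockdowns to -0.37, CREB1 to 0.34 in ZM11-kd1 and -0.07 between the knockdowns, LTO1, which shares 497 exon bases with CCND1, to 0.23 in ZM11-kd1, and TAF8 to 0.45 in ZM11-kd1 and 0.12 in ZM11-kd2. With the longest transcript, E2F5 was at -0.42, SKP2 at -0.06 and CREB1 at -0.13 between the knockdowns, and CREB1 at 0.52 and TAF8 at 0.36 in ZM11-kd1. The cause was not tested. Same-numbered libraries did not deviate together over genes (correlations of 0.0062, -0.0264 and -0.044). Counting noise enters these correlations, so they cannot show whether a number marks a shared culture. With the replicate block, 12545, 11688 and 10978 genes were called in ZM11-kd1, ZM11-kd2 and between them, against 12882, 12118 and 11355. All 30 log2 fold changes of the 10 genes stayed called or not called as before under the block. Low counts of CCND2 and CDKN1C limit what their values can show.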
